A study of Danio rerio with 12 samples.

Results

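Whole zebrafish larvae whose parents ate the highest methylmercury diet were compared with larvae whose parents ate the next lower one: 3 libraries at 10 ppm against 3 libraries at 3 ppm, 6 of the 12 libraries measured. Libraries were chosen by their diet label, and 18466 of 32674 genes entered, those with a mean of at least 10 scaled counts over the 6 libraries. Methylmercury (MeHg) is an organic mercury compound that accumulates through aquatic food chains and is known above all as a toxicant of the developing nervous system. It binds thiol and selenol groups, and the defences most often studied against it are metallothioneins, glutathione, thioredoxin and the selenoproteins.

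In every group the fish were of the EK strain and were F1 offspring, collected at 5 days post-fertilisation from parents kept on their diet for life. Each library held RNA from a pool of 5 whole larvae. Besides these diets there were 0 ppm (control) and 1 ppm, and each of the 4 had 3 pools. The labels tie no pool to a clutch or parent pair, so every p-value rests on pool-to-pool spread, which may be technical. The pair was picked because per1b, a light- and clock-driven repressor gene, was low in all 6 libraries, whereas it was high in 4 of the 6 control and 1 ppm libraries. The question was what separates the 2 highest diets once that difference is absent.

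The scaled counts, fragment counts divided by the authors by 1 size factor per library, came from 8.07, 8.02 and 11.8 M (mega) recovered fragments at 10 ppm and 8.78, 9.62 and 11.4 M at 3 ppm. Markers of neurons (elavl3), liver (fabp10a), rods (rho), ultraviolet cones (opn1sw1), fast muscle (mylpfa), skin (krt4), cartilage (col2a1a), intestine (fabp2) and heart (myl7) were present in each of the 6 libraries. On the first principal component (29.5% of the variance) the libraries scored 40.3, 15.6 and -1.4 at 10 ppm and -25.7, -16.6 and -12.1 at 3 ppm, without overlap. The genes entered included the fast muscle myosin genes myhz2, myhc4 and myha, listed at 0 in every 3 ppm library. Their part in this separation was not tested. Correlations over the tested genes lay between 0.966 and 0.980 within a diet (median 0.971) and between 0.960 and 0.978 across the diets (median 0.973). By the medians, libraries of a diet were thus no more alike than libraries of different diets. Library 1 of each diet stood apart: on the second principal component (27.7% of the variance) they scored 20.3 at 10 ppm and 35.2 at 3 ppm, and the other 4 libraries -0.461 or less.

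Only 5 of the 18466 genes (0.0271%) passed limma's test at an adjusted p of 0.05. All 5 were higher at 10 ppm, and 0 were lower. Among them myhz2, myhc4 and myha are fast muscle myosin heavy chain genes that were listed at 0 in every 3 ppm library and are described apart. Without those genes 2 of 18463 passed (0.0108%), and these were ggact.1 and ggact.2. Before adjustment, 906 genes (4.91%) had a p under 0.05, where chance alone gives 923.3. Of these, 589 (3.19%) were higher and 317 (1.72%) lower at 10 ppm. Limma-voom on the recovered fragments called 4 genes, 0 of them lower.

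The genes ggact.1 (ENSDARG00000070581) and ggact.2 (ENSDARG00000038248) were higher at 10 ppm than at 3 ppm. They encode gamma-glutamylamine cyclotransferases, which in mammals release free amines from gamma-glutamylamines, the end products of crosslinked proteins. In libraries 1 to 3 ggact.1 had 57.0, 80.7 and 75.7 scaled counts at 10 ppm, and 12.5, 12.2 and 13.5 scaled counts at 3 ppm. The groups lay far apart, and the 3 ppm values were close together. Its log2 fold change was 2.38 (SE 0.22; adjusted p = 0.00170 by limma), on the log2(scaled count + 1) scale that all fold changes here share and that understates changes of low genes. The neighbouring ggact.2 had 67.0, 77.5 and 95.6 scaled counts at 10 ppm, and 19.2, 19.3 and 15.23 scaled counts at 3 ppm (log2 fold change 2.09, SE 0.22; adjusted p = 0.00385 by limma). Per length, ggact.1 stood at 7.83 ± 1.38 FPKM at 10 ppm and 1.41 ± 0.0695 FPKM at 3 ppm, and ggact.2 at 6.86 ± 1.19 FPKM at 10 ppm and 1.54 ± 0.206 FPKM at 3 ppm (SD, n = 3 each).

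The other diets show how variable these genes are. Libraries 1 to 3 of the controls had 68.5, 10.5 and 38.5 scaled counts of ggact.1 and 72.0, 8.39 and 33.2 of ggact.2. At 1 ppm they had 31.5, 81.1 and 103 of ggact.1 and 49.3, 80.3 and 105 of ggact.2. Control library 2 therefore lay below every 3 ppm library for both genes, while the 10 ppm values lay within the range spanned by control and 1 ppm libraries. With all 12 libraries in the fit, the spread of the controls entered the error and neither gene passed (adjusted p = 1.00 by limma for each). In the gene order of the assembly GRCz12tu, ggact.3, ggact.2 and ggact.1 lie side by side on chromosome 1. Reads that such related neighbours share may have been split between them, so ggact.1 and ggact.2 are not 2 independent observations.

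**Figure D1:**
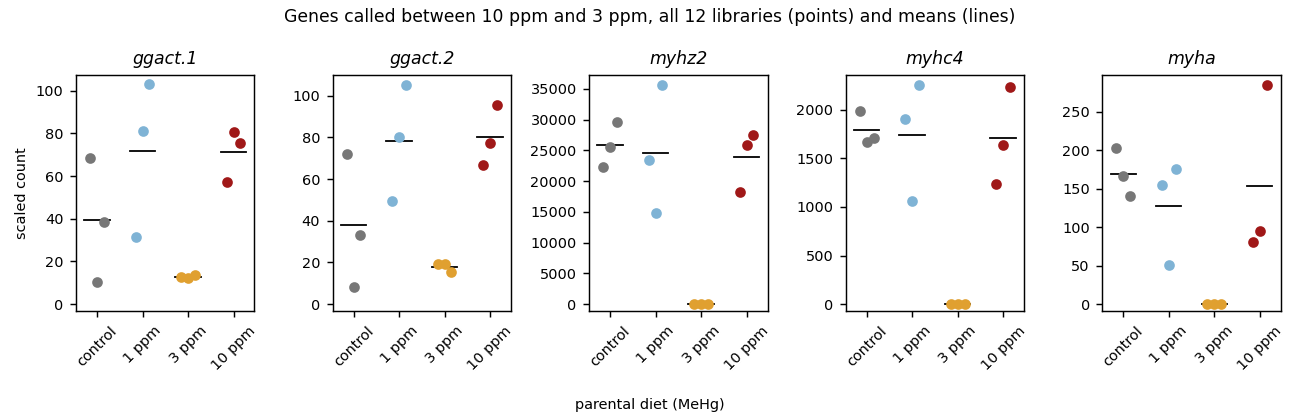
Scaled counts (vertical axis) of the 5 genes that passed between 10 ppm and 3 ppm, in all 12 libraries by parental diet from control to 10 ppm; points are libraries and lines are means of 3. For ggact.1 and ggact.2 the 3 ppm points sit together at the bottom (12.2 to 19.3) and control points range from 8.39 to 72.0, while the 3 myosin genes are at 0 only at 3 ppm.

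The 3 myosin genes myhz2 (ENSDARG00000012944), myhc4 (ENSDARG00000035438) and myha (ENSDARG00000095930) encode the motor of fast skeletal muscle fibres. At 10 ppm libraries 1 to 3 had 18159, 25822 and 27538 scaled counts of myhz2, 1242, 1642 and 2237 of myhc4, and 80.2, 94.5 and 284 of myha, against a listed 0 in each 3 ppm library for all 3 genes. The FPKM table listed the same zeros. No other tested gene was at 0 in all 3 ppm libraries with a mean of 10 or more at 10 ppm, and no gene showed the reverse. An exact 0 can be a failed estimate, so no fold is given. In the assembly GRCz12tu the 3 genes are consecutive on chromosome 5 and are followed by myhz1.3, another fast myosin gene. That neighbour had 11348, 18151 and 22293 scaled counts at 10 ppm and 18948, 15211 and 23545 at 3 ppm (log2 fold change -0.19, SE 0.25; adjusted p = 0.952 by limma). Its paralogs myhz1.1 and myhz1.2 had log2 fold changes of -0.10 and -0.01. Of the 93 tested genes of the muscle contractile list, which leaves those 3 out, 37 were higher and 56 lower, with a median log2 fold change of -0.07, and 0 passed.

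Beyond these genes the nearest to the threshold was ENSDARG00000075270, which has no symbol. It had 47.1, 22.6 and 23.9 scaled counts at 10 ppm and 168, 110 and 103 at 3 ppm (log2 fold change -2.04, SE 0.29; adjusted p = 0.129 by limma). The groups did not overlap, but the controls themselves spread widely, with 79.1, 37.1 and 0.896. It passed, as a lower gene, with library weights (adjusted p = 0.00521) and without 10 ppm replicate 1 (adjusted p = 0.0136). Next on the higher side was ENSDARG00000089465, with 289, 521 and 519 scaled counts at 10 ppm against 168, 147 and 201 at 3 ppm (log2 fold change 1.32, SE 0.23, adjusted p = 0.586).

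Of named genes on the higher side, none of the following passed. The hormone gene sst3, a somatostatin, had 166, 118.7 and 110 scaled counts at 10 ppm and 62.6, 70.21 and 79.0 at 3 ppm (log2 fold change 0.87, SE 0.19; adjusted p = 0.916 by limma). The sarcomere gene tcap, a titin cap protein, had 67.8, 111 and 118 at 10 ppm and 38.3, 39.3 and 57.0 at 3 ppm. Neither gene overlapped between the diets. The chemokine gene ccl38a.4 (ENSDARG00000041919) had a log2 fold change of 2.06, but its counts were low. It had 35.54, 19.38 and 14.23 scaled counts at 10 ppm and 2.21, 3.86 and 9.03 at 3 ppm. Its lowest 10 ppm value lay within the range of the controls. Log2 fold changes were 0.55 for pdap1a, 0.56 for the sialic acid hydroxylase gene cmah, 0.66 for the galactosyltransferase gene b4galt1, and 0.78 for jarid2b, a Polycomb cofactor gene. They were 0.79 for the antizyme gene oaz2b, 0.64 for the ammonia transporter gene rhcgl1 and 0.54 for slc35g2a.

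On the lower side, too, the genes nearest to the threshold missed it. The complement gene c7b had 60.34, 101 and 74.0 scaled counts at 10 ppm and 147, 157 and 115 at 3 ppm (log2 fold change -0.84, SE 0.20; adjusted p = 0.936 by limma). The clotting factor gene f10 had 317, 305 and 311 at 10 ppm and 464, 437 and 400 at 3 ppm, with no overlap. Log2 fold changes were -0.67 for pink1, a kinase gene of mitochondrial quality control, -0.51 for the cartilage transcription factor gene sox9a, -0.60 for the protease inhibitor gene serpina1 and -0.76 for nudt19. They were -0.51 for rmdn1, -0.59 for nckipsd, -0.76 for the lysosomal amino acid transporter gene slc38a9, -0.76 for the BMP antagonist gene chd and -0.75 for cdh15, a muscle cadherin gene.

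Gene groups were described by counts, since outside the fast muscle myosin list none of the other 50 lists had a member that passed over all genes. The yardsticks are the same counts over all tested genes: a median log2 fold change of 0.01, 51.9% of genes above 0, 6.51% with every 10 ppm value above every 3 ppm value, and 4.41% with every 10 ppm value below. Members of a list vary together within a library, so a list can depart from these shares through a single library. In whole larvae, moreover, fewer cells of a type and less RNA per cell cannot be told apart.

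Most synapse and transmitter genes had log2 fold changes above 0. Of the 93 members listed, 83 were tested, and 68 of these had a log2 fold change above 0, with a median of 0.16. All 10 ppm values were above all 3 ppm values for 22 of the 83 (26.5%), and the opposite held for 0. No member passed alone. Several belonged to the GABA system, the main inhibitory transmitter of the brain. The synthesis gene gad2 had 1160, 1206 and 1054 scaled counts at 10 ppm and 645, 923 and 857 at 3 ppm (log2 fold change 0.51, SE 0.15; adjusted p = 0.936 by limma). Its partner gad1b had 1260, 1176 and 1111 at 10 ppm and 662, 1066 and 944 at 3 ppm. The reuptake transporter gene slc6a1a had 1079, 904 and 769 at 10 ppm and 452, 685 and 725 at 3 ppm. For each of these genes the groups did not overlap, and 3 ppm library 1 was the lowest of the 6. Log2 fold changes were 0.40 for slc6a1b, another reuptake transporter gene, and 0.36 for slc32a1, which loads GABA into vesicles. Both likewise did not overlap. Of these GABA genes, gad1b, slc6a1b and slc32a1 were picked after their values were seen. Looked at with them were tph2 and th, transmitter genes of the same list outside the GABA system. Both overlapped, with log2 fold changes of 0.45 for tph2 and -0.00103 for th.

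The list also holds genes of vesicle release and of adhesion across the synapse. The vesicle fusion gene snap25a had 3737, 3170 and 2909 scaled counts at 10 ppm and 2236, 2488 and 2558 at 3 ppm (log2 fold change 0.42, SE 0.14; adjusted p = 0.936 by limma). The postsynaptic adhesion gene nlgn4a had 274, 255 and 238 at 10 ppm and 169, 211 and 187 at 3 ppm, and the synaptotagmin gene syt13 had 228, 213 and 192 at 10 ppm and 139, 180 and 163 at 3 ppm. In the other diets syt13 had 270, 343 and 319 in controls and 254, 375 and 308 at 1 ppm, each above every 10 ppm value. For gad1b these values were 1618, 1559 and 1231 in controls and 1128, 1616 and 1059 at 1 ppm, which overlapped with those at 10 ppm.

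How far this rests on 1 library was counted by leaving out each in turn. Library medians of the synapse list, as deviations from the mean of the 6 libraries, were 0.11, 0.19 and 0.06 at 10 ppm and -0.27, -0.00353 and -0.04 at 3 ppm, so 3 ppm library 1 was the lowest. Without it the list median was 0.10, and 23 of 83 members (27.7%) did not overlap on the higher side, where 13.2% of all genes did. Without 10 ppm library 1 the share was 37.3%, where 11.12% of all genes did.

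Neuronal differentiation genes, which build axons and the cytoskeleton of young neurons, had 41 of 51 tested members higher, a median of 0.13 and 11 members (21.6%) entirely above and 0 entirely below. The tau gene maptb had 548, 522 and 565 scaled counts at 10 ppm and 418, 469 and 395 at 3 ppm (log2 fold change 0.35, SE 0.12; adjusted p = 0.936 by limma). Log2 fold changes were 0.44 for dpysl5b, 0.37 for stmn4 and 0.39 for islr2, all without overlap. Receptors for transmitters had 56 of 70 tested members higher and a median of 0.19, but only 5 (7.14%) were entirely above and 2 (2.86%) entirely below, close to the shares over all genes. Without 3 ppm library 1 their median was 0.09. The share entirely above depended on the library left out: it was 24.3%, 8.57% and 31.4% without 10 ppm library 1, 2 or 3, where 11.12%, 12.5% and 12.5% of all genes did so, and 11.4%, 25.7% and 25.7% without 3 ppm library 1, 2 or 3, against 13.2%, 10.85% and 10.9% of all genes. The glutamate receptor gene gria4a had 162, 178 and 144 scaled counts at 10 ppm and 98.0, 133 and 116 at 3 ppm, without overlap. The subunit genes grin1b and gabrb2 overlapped, with log2 fold changes of 0.43 and 0.41. Entirely below lay the GABA receptor gene gabrr1, at low counts, with a log2 fold change of -0.68. Genes of glutamate transport and the glutamine cycle had 11 of 17 tested members higher and a median of 0.04. Of these, 2 (11.8%) lay entirely above and 1 (5.88%) entirely below. The gene entirely below was the glutamate transporter gene slc1a2a, with a log2 fold change of -0.67.

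Myelin and oligodendrocyte genes formed a small list in which 9 of 17 tested members were higher and 8 lower (median 0.08), yet 4 (23.5%) lay entirely above and 1 (5.88%) entirely below. The myelin protein gene mpz had 233, 205 and 221 scaled counts at 10 ppm and 174, 155 and 165 at 3 ppm (log2 fold change 0.41, SE 0.13; adjusted p = 0.936 by limma). The other members entirely above were the myelin genes plp1b, with a log2 fold change of 0.20, and mbpa, with 0.15, and the oligodendrocyte transcription factor gene olig1, with 0.47. Neural progenitor and radial glia genes had 19 of 30 lower (median -0.06, and 0.01 without 10 ppm library 2), while 3 (10.0%) lay entirely above and 1 (3.33%) entirely below, beside 6.51% and 4.41% over all genes. The gene entirely below was the intermediate filament gene vim (1351, 1322 and 1239 scaled counts at 10 ppm, 1470, 1600 and 1707 at 3 ppm). The 3 entirely above are not named here, since the naming rule took lower members of this list. Of 35 immediate early genes, which respond within minutes to neuronal activity and handling, 3 (8.57%) lay entirely above and 2 (5.71%) entirely below. Their median log2 fold change was -0.12, and 0.07 without 3 ppm library 3. At an unadjusted p under 0.05 by limma, 4 were higher and 1 lower. From the lower side, which the naming rule took, the activity gene npas4a overlapped widely. It had 58.7, 54.9 and 95.03 scaled counts at 10 ppm and 56.8, 169 and 155 at 3 ppm.

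**Figure D2:**
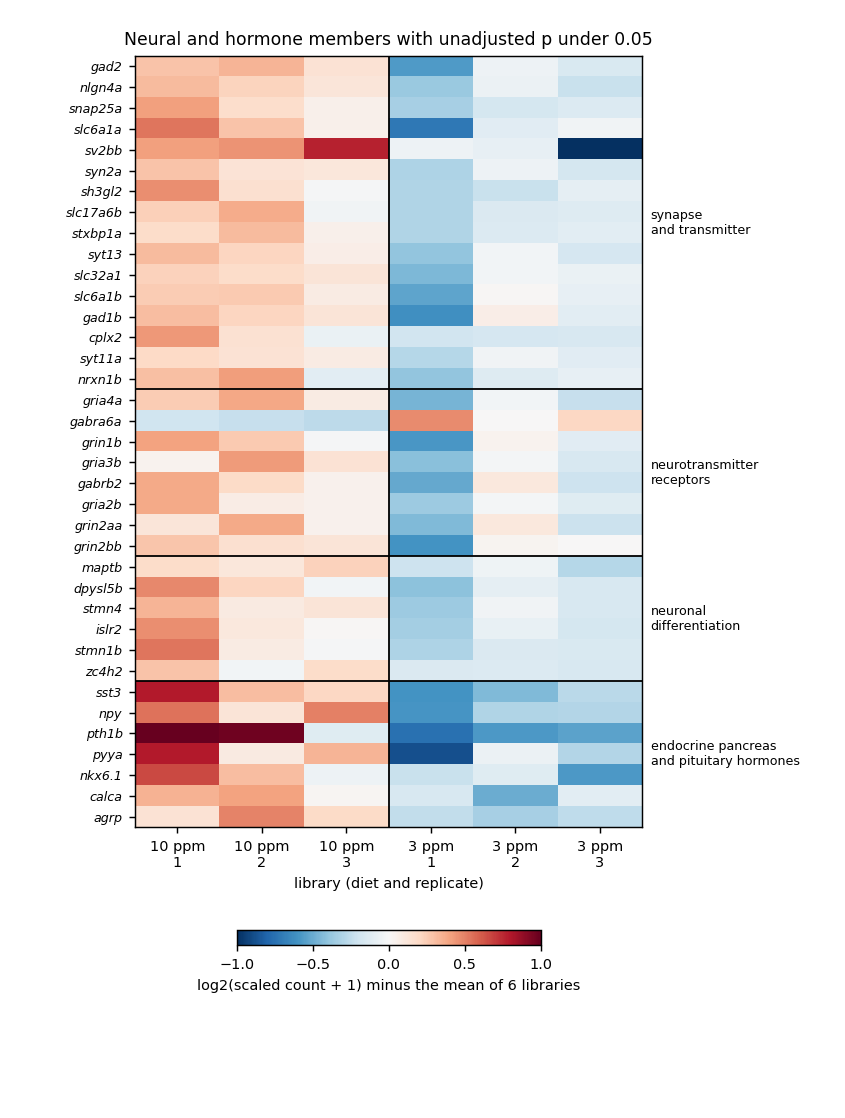
Deviation of log2(scaled count + 1) from the mean of 6 libraries for members of 4 neural and hormone lists with an unadjusted p under 0.05 (rows), in the 10 ppm libraries (left) and 3 ppm libraries (right); red is higher and blue lower, and colours end at 1 log2 unit. Rows were picked by p, so their contrast is a description; 3 ppm library 1 is bluest in most rows of the synapse and receptor lists, and gabra6a runs the other way.

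Hormones and peptides of the pancreas, pituitary and hypothalamus had 27 of 31 tested members higher at 10 ppm, with a median log2 fold change of 0.21. Of the 31, 8 (25.8%) lay entirely above and 0 entirely below, and 0 passed. The appetite peptide gene npy had 56.2, 42.0 and 54.6 scaled counts at 10 ppm and 25.1, 30.9 and 31.0 at 3 ppm (log2 fold change 0.79, SE 0.21; adjusted p = 0.936 by limma). The gut and islet peptide gene pyya had 103, 63.0 and 75.1 at 10 ppm and 31.7, 56.7 and 48.0 at 3 ppm. The parathyroid hormone gene pth1b had 34.7, 33.9 and 15.4 at 10 ppm and 9.58, 10.95 and 11.3 at 3 ppm. None of these genes overlapped, and their counts were low. Controls had 50.1, 49.7 and 35.9 scaled counts of npy, 136, 164 and 96.8 of sst3 and 68.5, 106 and 85.1 of pyya, near the 10 ppm values. For pth1b it was otherwise: controls had 8.79, 18.9 and 6.27, of which libraries 1 and 3 lay below every 3 ppm value. The list median depended on the 10 ppm libraries, and was 0.33 without library 2 and 0.13 without library 3.

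Lists of phototransduction, retinal transcription factors, liver, cartilage and blood vessels had median log2 fold changes below 0, and no member passed. The visual cycle list of the eye went the other way, with 18 of 24 tested members higher. Its median was 0.08, and -0.05 without 3 ppm library 3, with 1 (4.17%) entirely above and 0 entirely below. Of 60 tested phototransduction genes, which turn light into a signal in rods and cones, 38 were lower, the median was -0.14, and 5 (8.33%) lay entirely below against 1 entirely above. Median deviations of this list were 0.04, -0.27 and 0.08 at 10 ppm and 0.14, -0.04 and 0.07 at 3 ppm. Without 10 ppm library 2 the list median was -0.01, and with any other single library left out it lay between -0.17 and -0.06. The share entirely below was 15%, 8.33% and 31.7% without 10 ppm library 1, 2 or 3, against 8.12%, 8.78% and 10.5% of all genes. It was 13.3%, 16.7% and 10% without 3 ppm library 1, 2 or 3, against 10.02%, 7.59% and 10.01%. The rod opsin gene rho had 5135, 5667 and 11067 scaled counts at 10 ppm and 12701, 10890 and 9619 at 3 ppm (log2 fold change -0.68, SE 0.27; adjusted p = 0.936 by limma). Its groups overlapped, since 10 ppm library 3 was as high as the 3 ppm libraries. The rod kinase gene grk1a had the same shape, with 174, 178 and 269 at 10 ppm and 354, 243 and 263 at 3 ppm. Log2 fold changes were -0.64 for impg1b, a gene of the matrix between photoreceptors, and -0.89 for gc2. The cone opsin gene opn1sw1 had -0.15. Of the 38 retinal and pineal transcription factors (median -0.03, and 0.03 without 3 ppm library 2), 4 (10.5%) lay entirely below, among them rx1 (214, 110 and 159 scaled counts at 10 ppm, 230, 251 and 223 at 3 ppm) and crx (503, 497 and 524 at 10 ppm, 621, 617 and 562 at 3 ppm).

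Hepatocyte genes had 64 of 88 tested members lower and a median of -0.11, but 3 (3.41%) lay entirely below and 1 entirely above, fewer than the shares over all genes. The liver marker fabp10a had a log2 fold change of 0.12, and serpina1l, a relative of serpina1, had 1010, 699 and 1580 scaled counts at 10 ppm and 2146, 2164 and 1283 at 3 ppm. Median deviations of this list were -0.15, -0.24 and 0.27 at 10 ppm and 0.25, 0.06 and -0.10 at 3 ppm, so the libraries of a diet did not move together. Without 10 ppm library 1, 2 or 3, hepatocyte shares entirely below were 7.955%, 3.41% and 26.1%, against 8.12%, 8.78% and 10.5% of all genes. Without 3 ppm library 1, 2 or 3 they were 9.09%, 4.545% and 15.9%, against 10.02%, 7.59% and 10.01%. The list median without 10 ppm library 3 was -0.265. Cartilage, bone and matrix genes had 48 of 70 lower (median -0.11), with 5 (7.14%) entirely below. The cartilage regulator genes sox9a, with 95.9, 113 and 116 scaled counts at 10 ppm and 150, 151 and 161 at 3 ppm, and sox9b, with 57.0, 63.8 and 58.6 at 10 ppm and 91.4, 112 and 71.1 at 3 ppm, were among those 5. So was the collagen gene col2a1b, with a log2 fold change of -0.52. Without 3 ppm replicate 1 the median of this list was 0.04.

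Endothelial genes had the lowest median of any list, -0.19, with 21 of 30 tested members lower and 4 (13.3%) entirely below against 2 (6.67%) entirely above. The angiopoietin receptor gene tek had 16.5, 21.8 and 29.0 scaled counts at 10 ppm and 34.6, 40.6 and 29.3 at 3 ppm, and its relative tie1 had 100, 116 and 130 at 10 ppm and 156, 147 and 155 at 3 ppm (log2 fold change -0.41, SE 0.15; adjusted p = 0.936 by limma). Neither overlapped. Kidney genes had 23 of 33 lower and 4 (12.1%) entirely below, among them the nephron transcription factor gene hnf1bb (log2 fold change -0.57) and trpm7 (-0.45).

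No gene of the translation or respiration lists passed. All 13 mitochondrially encoded genes had log2 fold changes above 0, with a median of 0.19, and 3 (23.1%) lay entirely above. The ATP synthase subunit gene mt-atp8 had 1770, 1234 and 1736 scaled counts at 10 ppm and 1029, 890 and 1162 at 3 ppm (log2 fold change 0.61, SE 0.17; adjusted p = 0.936 by limma). These genes share transcripts, so they are not 13 independent observations. Nuclear-encoded oxidative phosphorylation genes had 54 of 76 higher (median 0.08, and 0.01 without 10 ppm library 3), of which 2 (2.63%) lay entirely above, under the share over all genes. Ribosomal protein genes had 57 of 68 higher (median 0.13, and 0.06 without 10 ppm library 1) and 8 (11.8%) entirely above, for example rpl38 with a log2 fold change of 0.46.

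Chaperone genes had 37 of 63 tested members higher, a median of 0.08, and 8 (12.7%) entirely above against 0 below. The heat shock factor binding protein gene hsbp1a had 254, 206 and 233 scaled counts at 10 ppm and 182, 145 and 168 at 3 ppm (log2 fold change 0.48, SE 0.14; adjusted p = 0.936 by limma), and the chaperone gene hspa4l had 210, 130 and 150 at 10 ppm, 119.4, 118 and 127 at 3 ppm and 245, 223 and 267 in controls. Antigen presentation and interferon genes had 20 of 29 higher and 5 (17.2%) entirely above. The class I genes mhc1zba, with 360, 353 and 323 scaled counts at 10 ppm and 147, 154 and 302 at 3 ppm, and mhc1zca, with 90.9, 80.7 and 74.0 at 10 ppm and 51.6, 40.6 and 67.1 at 3 ppm, were among them. Reads of closely related class I copies may have been shared between these genes.

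At the body surface, skin and keratin genes had 23 of 37 tested members higher (median 0.07), with 3 (8.11%) entirely above and 0 below. The calcium-binding gene icn2 had 2213, 1421 and 1553 scaled counts at 10 ppm and 1186, 1075 and 1330 at 3 ppm (log2 fold change 0.51, SE 0.17; adjusted p = 0.936 by limma), while the keratin gene krt4 had a log2 fold change of -0.01. Ionocyte genes, which take up ions and release ammonia, had 23 of 34 higher (median 0.06) and 3 (8.82%) entirely above. The ammonia transporter gene rhcgl1 was among them, with 203, 273 and 235 at 10 ppm and 129, 144 and 183 at 3 ppm. Its relative rhcga had 308, 599 and 497 at 10 ppm and 147, 160 and 375 at 3 ppm, with overlap.

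**Figure D3:**
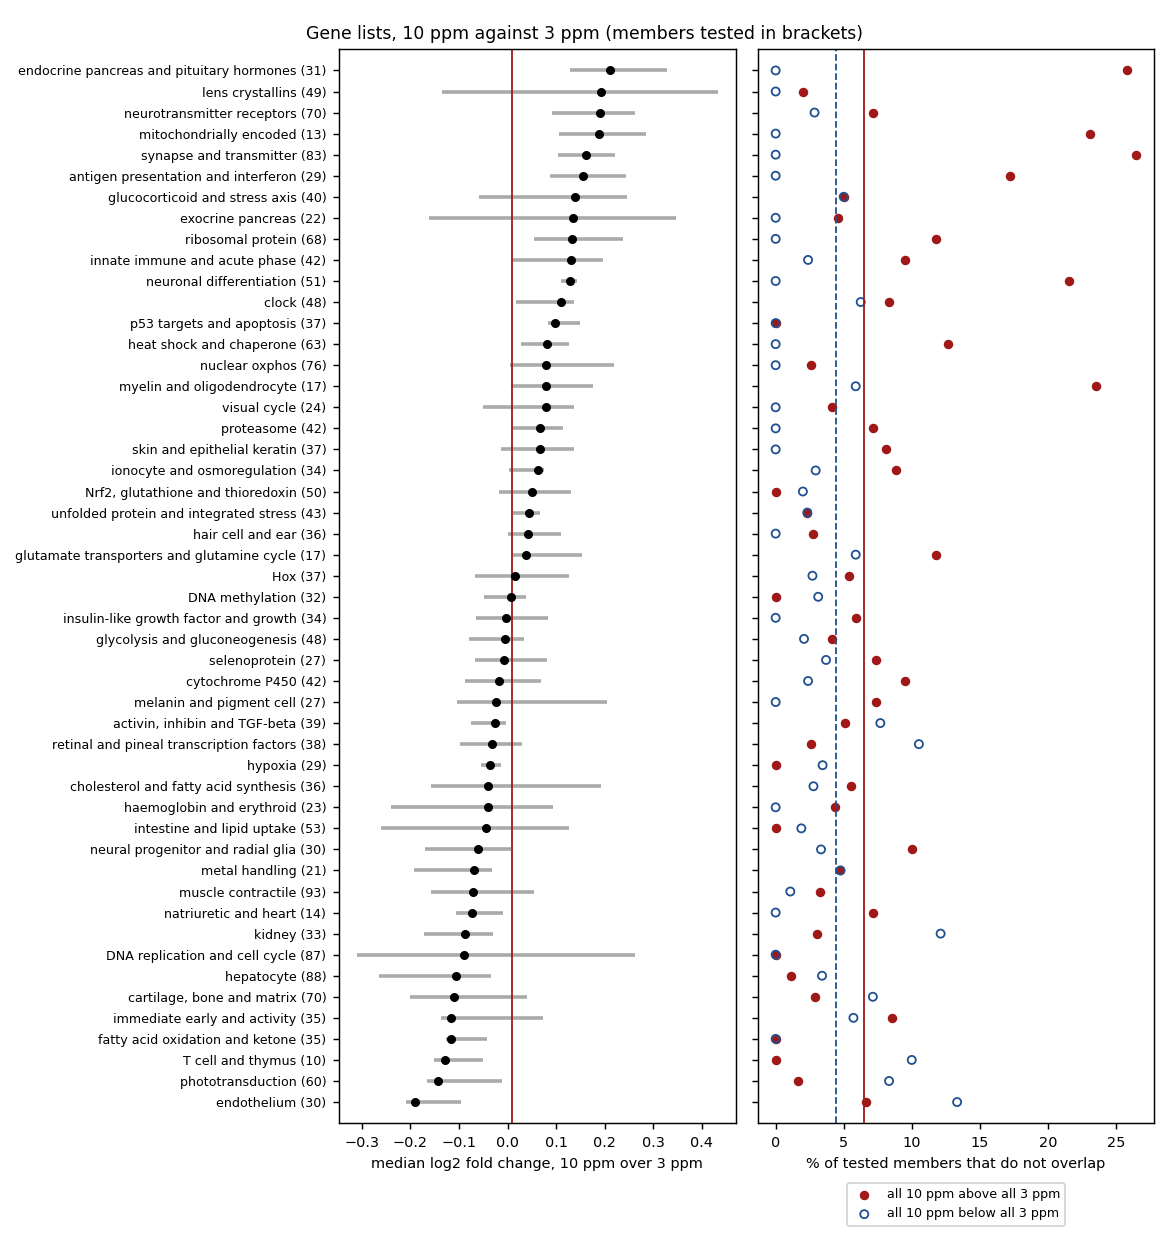
Median log2 fold change of 50 gene lists, 10 ppm over 3 ppm (left; black points, with grey bars for the range over fits that leave out each library in turn), and percent of tested members whose 3 values at 10 ppm all lie above (red) or below (blue, open) the 3 at 3 ppm (right). Vertical lines give the same over all 18466 genes, a median of 0.01 and shares of 6.51% above and 4.41% below; synapse genes reach 26.5% and hormones 25.8% above.

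The gene groups tied to mercury itself showed little. Metal handling genes had 15 of 21 lower with a median of -0.07, and the metallothionein gene mt2, which binds metals, had 260, 170 and 195 scaled counts at 10 ppm and 220, 249 and 182 at 3 ppm. Its groups overlapped (log2 fold change -0.07, SE 0.18; adjusted p = 0.979 by limma). The metal transporter gene slc11a2 had 40.5, 65.4 and 60.32 at 10 ppm and 86.2, 108 and 72.2 at 3 ppm, without overlap. Of 50 Nrf2, glutathione and thioredoxin genes 31 were higher, the median was 0.05, 0 lay entirely above and 1 (2%) entirely below. Selenoprotein genes had 13 of 27 higher and a median of -0.01; the glutathione peroxidase genes gpx1a and gpx4a had log2 fold changes of -0.80 and -0.56, both with overlap. The heme oxygenase gene hmox1a had -0.15. Unfolded protein response genes had a median of 0.04, p53 target and apoptosis genes 0.10 and DNA methylation genes 0.01, and 0 members of the mercury and stress lists named here passed.

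Some lists differed more between libraries of a diet than between the diets. Lens crystallin genes had a median deviation of 0.95 in 10 ppm library 1, and of -0.34 and -0.19 in the other libraries of that diet, against -0.02, -0.06 and -0.17 at 3 ppm; without 10 ppm replicate 1 the list median was -0.14, against 0.19 with it. DNA replication genes had -0.03, -0.27 and 0.18 at 10 ppm and 0.74, -0.18 and -0.43 at 3 ppm. For the replication clamp gene pcna this meant 697, 493 and 817 scaled counts at 10 ppm and 1230, 548 and 408 at 3 ppm. Exocrine pancreas genes had 0.17, 0.11 and -0.09 at 10 ppm and -0.61, 0.29 and 0.15 at 3 ppm. The digestive enzyme gene ctrb1 had 19633, 18235 and 16000 at 10 ppm and 9827, 20138 and 18358 at 3 ppm. The same 3 ppm library 1 that was low for synapse and pancreas genes was thus high for DNA replication genes. The part of these library differences in the comparison of the diets was not tested.

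**Figure D4:**
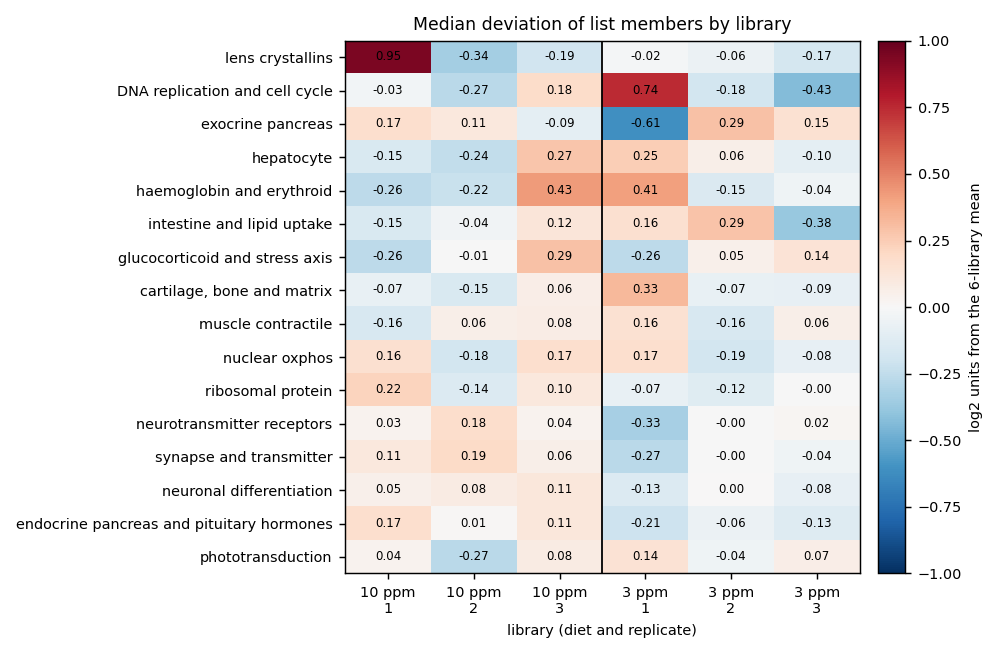
Median deviation of the members of 16 gene lists (rows) in each 10 ppm library (left) and 3 ppm library (right), in log2 units from the mean of the 6 libraries. The strongest entries are 0.95 for lens crystallins in 10 ppm library 1, and 0.74 for DNA replication and -0.61 for exocrine pancreas genes in 3 ppm library 1.

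By the choice of the pair per1b was low in all 6 libraries, so its level is no check of a shared clock state. It had 52.1, 52.5 and 54.1 scaled counts at 10 ppm and 49.4, 78.6 and 67.1 at 3 ppm. The clock gene rorcb had 165, 209 and 222 at 10 ppm and 197, 226 and 251 at 3 ppm. Where per1b was high, rorcb had 17.5 and 8.96 (control libraries 2 and 3) and 39.7 and 3.51 (1 ppm libraries 2 and 3). The clock repressor gene nr1d1 had 6.61, 38.8 and 52.4 at 10 ppm and 6.63, 12.9 and 22.0 at 3 ppm. In those high-per1b libraries nr1d1 had 1694 and 967 (control) and 395 and 571 (1 ppm), so it was low here too, though uneven within a diet. Its relative nr1d2a was also uneven, with 212, 1108 and 1342 at 10 ppm and 262, 321 and 663 at 3 ppm. For both genes library 1 was the lowest of its diet and the groups overlapped. At 10 ppm library 1 was also the lowest for glucocorticoid-induced genes. Of these fkbp5 had 195, 2019 and 2166 at 10 ppm and 493, 253 and 940 at 3 ppm, and klf9 had 245, 1102 and 848 at 10 ppm and 224, 211 and 629 at 3 ppm. Of 48 tested clock genes 4 (8.33%) lay entirely above and 3 (6.25%) entirely below, and 0 passed. Entirely above lay clocka, the activator gene, with 345, 446 and 352 at 10 ppm and 308, 280 and 335 at 3 ppm. The part of these states in the group differences was not tested.

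**Figure D5:**
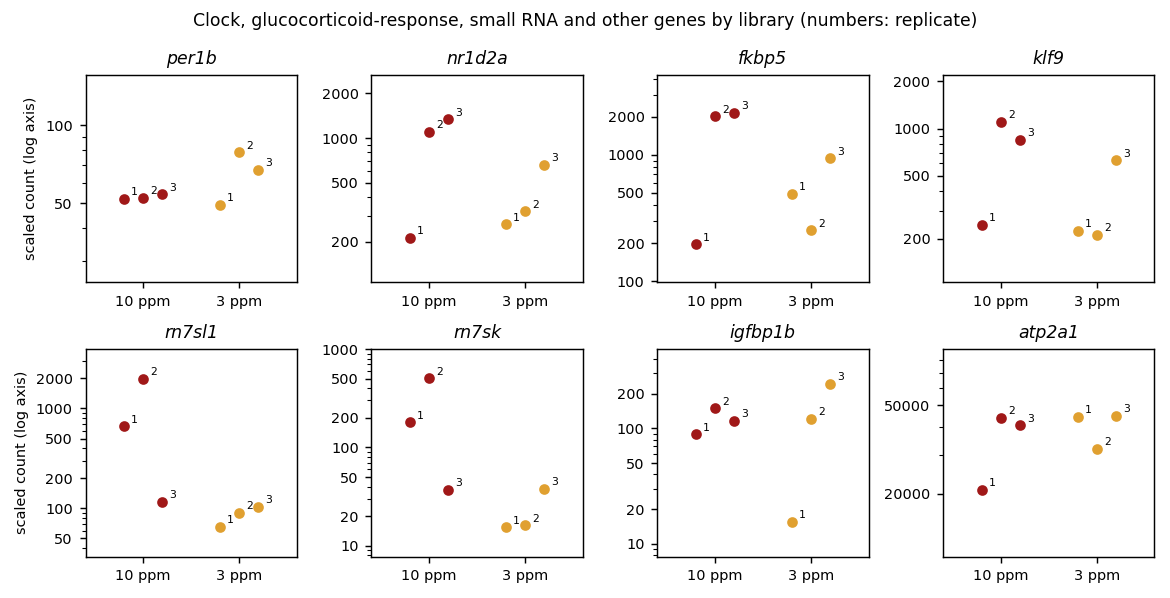
Scaled counts (log axis) of 8 genes in the 10 ppm libraries (left, red) and 3 ppm libraries (right, orange), with replicate numbers beside the points. The 6 values of per1b lie between 49.4 and 78.6, while fkbp5 ranges from 195 to 2166 within 10 ppm and rn7sl1 from 116 to 1976.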

How the data were processed

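RNA from pools of 5 whole larvae was sequenced on 12 samples to a lane, as paired ends of 100 bases, per the labels' protocols. The submitters' processing notes name the build Zv9 and the tools TopHat, Cuffnorm, cutadapt, FastQC and CASAVA 1.8.2; no settings or annotation release stand there. The table deposited by the authors as counts held a scaled signal: 98.1% to 98.6% of values above 0 were whole multiples of 1 step per library (tolerance 0.02 steps), and dividing by the steps recovered fragments and depth. The second table deposited by the authors held FPKM values, used for levels per length.

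limma 3.58.1 (R 4.3.3) was fitted to log2(scaled count + 1) of the 6 libraries with a mean-variance trend and robust moderation, for genes with a mean of at least 10, two-sided, with Benjamini-Hochberg adjustment at 0.05 over all genes tested. The fit was also run on simulated libraries with the same noise level for every gene and no shifts shared by genes of a library. These data do hold such shared shifts, so that run gives no error rate for them. Alternatives were a fit of 12 libraries, other filters, pseudocounts, scalings and weights, limma-voom, a replicate block and leaving out each library. Gene lists were described by counts and medians only.

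The libraries, the 51 lists and the naming rule were chosen with earlier results of these data known. The rule took the genes that passed, then the smallest p per direction up to 12 with a symbol. Per list it also took up to 4 members of smallest p in the direction of the larger count. Members of the opposite direction could not be taken this way, so such examples follow their list by construction. Fixed markers and cell type markers were taken too, of which prss1 and hbae1.1 had no row. Several fixed markers and list members are not described above. A gene that the rule names is not reported here. Genes without a symbol and the myhz1 genes were added after their values were seen. So were gad1b, slc32a1, slc6a1b, tph2, th, pcna, nr1d2a, klf9, rn7sl1 and the other genes of the closing section. The deposited table gave symbols for 20495 genes, and a table of gene IDs and symbols for 1553 more; gene order came from the RefSeq assembly GRCz12tu, whose coordinates are not used. Tables and figures were made with Python 3.11.15.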

Additional observations from a re-analysis of the deposited data

How the results depend on the processing

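Of the 5 genes that passed, myhz2 and myhc4 passed in all 17 alternatives that tested them, ggact.1 in 16, and ggact.2 and myha in 15. With large values at 10 ppm against a listed 0 in every 3 ppm library, myhz2 and myhc4 could hardly fail. Their passing therefore adds no support and cannot show whether the zeros are failed estimates. Over all genes 3 passed with all 12 libraries in the fit and 3 with a minimum mean of 50, which removes ggact.1 and ggact.2 from the test. In either case all 3 were higher and 0 passed besides the myosin genes. Besides the myosin genes 4 passed with library weights. Leaving out each library in turn gave 4 to 8 genes in all, 4 to 7 of them higher and 0 to 1 lower, and 1 to 5 besides the myosin genes. The 5 came without 10 ppm replicate 3, where the call on the liver gene hpx (lower) and on ENSDARG00000080567 and ENSDARG00000084622 (higher) rested on 2 libraries. Without 10 ppm replicate 2, ggact.2 missed the threshold (adjusted p = 0.0526). The gene myha missed it with FPKM and 1 added (adjusted p = 0.319) and with limma-voom (adjusted p = 0.751). A lower gene, 1 each time, passed with the replicate block, without a filter and with library weights. The list median of hormones ranged from 0.13 to 0.33 over the left-out libraries. The count of synapse genes entirely above ranged from 23 to 32 of 83 (27.7% to 38.55%). That of receptor genes ranged from 6 to 22 of 70 (8.57% to 31.4%). Leaving out a library can only keep or raise such a count, since fewer values have to lie apart. Over all genes the share rose from 6.51% to between 10.85% and 13.2%. Part of the rise in the synapse and receptor counts is thus built in. These counts were alternatives chosen after seeing the data. The cause of the differences between left-out libraries was not tested.

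Same-numbered libraries of 10 ppm and 3 ppm had correlated deviations of 0.121, 0.111 and -0.0347, so the numbers were not taken to pair them. The 10 ppm libraries 2 and 3 correlated best with another number. Such values cannot show that the numbers carry no structure. Library 1 of each diet stood apart on the second principal component. In control and 1 ppm, per1b was low in library 1 and high in libraries 2 and 3. Whether same-numbered libraries share a batch was not tested. With the replicate block 6 genes passed against 5 without it, the sixth being ENSDARG00000075270. Signs turned only for genes far from the threshold: mt2 ranged from -0.244 to 0.0615 over the left-out libraries, hmox1a from -0.401 to 0.143, ctrb1 from -0.104 to 0.414, mylpfa from -0.0379 to 0.140, krt4 from -0.141 to 0.140 and fabp2 from -0.134 to 0.601, and ctrb1 was at -0.0174 with library weights. Count models were not run, because the deposited values are scaled and not all recovered fragments were whole numbers. Median-of-ratios scaling of the scaled counts was run, and 5 genes passed limma's test.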

Other observations

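Small structural RNAs were high in some 10 ppm libraries. The signal recognition particle RNA rn7sl1 had 661, 1976 and 116 scaled counts in 10 ppm libraries 1 to 3, against 65.6, 90.2 and 104 at 3 ppm. The transcription regulator RNA rn7sk had 180, 502 and 37.0 at 10 ppm and 15.5, 16.1 and 37.8 at 3 ppm. The ribosomal RNA gene listed as 5_8S_rRNA had 174, 355 and 52.9 at 10 ppm and 18.4, 10.95 and 38.9 at 3 ppm. None passed (adjusted p = 0.936 by limma for each), and control library 3 was also high for rn7sl1, with 1072. These RNAs lack long poly(A) tails, so their level depends on the library preparation as well as on the cell, and the part of either was not tested.

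Other genes spread widely inside a diet. The protease gene ctsba had 81.0, 0.807 and 220 scaled counts at 10 ppm and 274, 65.7 and 278 at 3 ppm. The growth factor binding gene igfbp1b had 89.3, 149 and 117 at 10 ppm and 15.5, 121 and 245 at 3 ppm. The heme carrier gene hpx had 35.5, 27.5 and 154 at 10 ppm and 107, 195 and 113 at 3 ppm. The neuropeptide gene pth2 had 60.34, 25.8 and 21.6 at 10 ppm and 2.95, 8.37 and 17.5 at 3 ppm, without overlap (log2 fold change 1.92, SE 0.59, adjusted p = 0.936 by limma). Of the deposited gene symbols 15 stood in the form of a date, and those rows were read by their gene ID.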
